A study of Mus musculus with 34 samples.

Results

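The 7 genes described here carry out or control antigen presentation on major histocompatibility complex (MHC) class II molecules: the chain genes H2-Aa, H2-Ab1 and H2-Eb1, the peptide exchange genes H2-DMa and H2-DMb1, the invariant chain gene Cd74 and the transactivator gene Ciita. They were taken by gene symbol from a list made with earlier results of these data known, and all 7 were found among the 14552 genes of an uninjected series and among the 17406 genes of a modified mRNA (modRNA) series. Both series measured gene expression by RNA sequencing in the heart left ventricle (LV) of CFW mice, an outbred stock, in which myocardial infarction (MI) was made by permanently tying the left anterior descending coronary artery. Per the study's methods, the tissue sequenced in the uninjected series was part of the ischemic area, or of the matching area in sham hearts, not the whole LV. The uninjected series held 3 sham libraries, whose titles read sham while their stress label reads no operation, 3 libraries at 4 h post-MI and 4 at 24 h post-MI. The modRNA series held 2 sham-operated, uninjected libraries labelled 4 h, and infarcted hearts that received either AC modRNA or Luc (luciferase) modRNA in the border zone directly after the ligation. There were 4 libraries of each at 4 h, 3 of each at 24 h and 4 of each at 48 h, and Luc is the control injection. The age of the mice and what AC stands for are not given in the sources used here. Luc hearts differ from sham hearts in both infarction and injection, since no infarcted heart of the modRNA series was left uninjected. Values are CPM (read counts scaled to a common total), scaled separately in each series, so every test stayed within a series.

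MHC class II molecules are pairs of an alpha and a beta chain that display peptides from endosomes to CD4+ T cells. H2-Aa and H2-Ab1 encode the alpha and beta chain of the mouse A molecule, and H2-Eb1 encodes the beta chain of the E molecule. The invariant chain, encoded by Cd74, guards the groove of the newly made pair, and the H2-DM pair later releases its remnant so that a peptide can bind. Ciita does not bind DNA itself but docks on factors that sit on the X and Y boxes of class II promoters, and it is induced by interferon-gamma. In the heart these genes are used mainly by dendritic cells, B cells and macrophages. In whole tissue, a change in the number of such cells and a change in RNA per cell cannot be told apart.

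The 5 H2 members lie within the MHC on chromosome 17 of the mm10 build, with H2-DMa at chr17:34122832-34139102, H2-DMb1 at chr17:34153191-34160230, H2-Ab1 at chr17:34263227-34269419, H2-Aa on the minus strand at chr17:34282751-34287772 and H2-Eb1 at chr17:34305867-34316675. Ciita lies at chr16:10480072-10527641. Promoter windows of RefSeq on GRCm38.p6, from 250 bases before to 50 bases after a gene's start, matched 4 of the 7 members. H2-Ab1, Cd74 and Ciita had no window. The windows were searched on both strands for the Y box letters TGATTGG and for the X box core letters GCAAC, which do not overlap. The Y box letters were found in the windows of H2-Aa, H2-Eb1 and H2-DMb1, with their first base 50, 61 and 63 bases upstream of the start, and in neither of the 2 windows of H2-DMa. Distances are counted from the start on which each window was set. For H2-Aa that start lies outside the gene coordinates given above, since its whole window is at chr17:34287774-34288073. The following stretches, with the Y box letters in capitals, are shown because they are where the windows of these 3 members hold the letters.
H2-Aa, chr17:34287858-34287885, minus strand: aagagaattttcTGATTGGttctggcga
H2-Eb1, chr17:34305794-34305821, plus strand: ctcctttgatgcTGATTGGctcccagca
H2-DMb1, chr17:34153116-34153143, plus strand: tgattcactcagTGATTGGtctgacctg
The X box core letters preceded the Y box by 26 bases in H2-Aa and by 25 bases in H2-Eb1, and are the capitals below.
H2-Aa, chr17:34287886-34287913, minus strand: ctgcagctgGCAACtttgacgtcatcac
H2-Eb1, chr17:34305767-34305794, plus strand: ctctaactaGCAACtgatgatgctggac
H2-DMb1 had no such core within 10 to 40 bases before its Y box. Of all 32851 windows, 7.82% held TGATTGG, 35.2% held GCAAC, and 0.29% held both in this order and spacing. A match of letters is a description and shows no binding.

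The labelled tissue was checked first. The summed level of 8 cardiomyocyte genes, led by Myh6, was between 20870 and 77520 CPM in the 34 libraries. In the modRNA series 7 red cell and atrial genes summed to 191.5 to 631.5 CPM in sham. At 4 h their sum was 1704 to 2561 CPM in Luc and 2425 to 10670 CPM in AC hearts. At 24 h it was 582.8 to 1069 CPM in Luc and 201.6 to 750.9 CPM in AC hearts. Myl7 of this list averaged 41.5 CPM in Luc hearts at 24 h and 0.0639 CPM in sham. The part of these genes in the members' values was not tested. In the uninjected series the libraries held an estimated 12553519 to 18952669 reads, of which H2-DMb1 had 16 to 271 and Ciita 12 to 84, so these members were the least precise. The files do not give the depth of the modRNA libraries, which summed to between 508204 and 818456 CPM. The sample titles of the modRNA series are written differently at 24 h than at 4 h, and the sample numbers start again at 48 h. In that series a difference between times therefore cannot be told apart from a difference between library sets. The sham libraries are numbered together with the 4 h libraries, so Luc hearts at 24 h or 48 h against sham have the same limit. AC and Luc hearts of the same time are not affected by this. Nothing in the labels says that replicates came from separate mice, so p-values measure the spread between libraries.

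In sham hearts the invariant chain stood highest per length of the gene's exons. Cd74 was at 61.0 ± 12.4 CPM per kilobase (SD, n = 3) in the uninjected series, followed by H2-Aa at 27.6 ± 7.01, H2-Ab1 at 18.0 ± 5.75 and H2-Eb1 at 16.3 ± 3.21. H2-DMb1 at 1.18 ± 0.673 and H2-DMa at 1.14 ± 0.185 CPM per kilobase were far below these, and Ciita was lowest at 0.144 ± 0.0328. In this order H2-Aa overlapped H2-Ab1, H2-Ab1 overlapped H2-Eb1 and the H2-DM genes overlapped each other, while Cd74 and Ciita lay apart from their neighbours. The sham hearts of the modRNA series had the same order except that H2-Eb1, at 27.1 ± 3.34 CPM per kilobase (SD, n = 2), lay above H2-Ab1 at 23.3 ± 4.37.

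At 24 h post-MI without injection, the peptide exchange genes rose while the chains they serve did not pass the test. H2-DMa was at 2.57, 3.55 and 2.99 CPM in sham hearts, at 3.72, 2.82 and 4.68 CPM at 4 h, and at 11.1, 8.29, 5.96 and 7.08 CPM at 24 h post-MI. All 4 hearts at 24 h lay above every earlier heart. Mean H2-DMa was 2.67-fold that of sham, a difference of 1.15 ± 0.20 (SE) on the log2(CPM + 1) scale, with a limma adjusted p of 0.000333. H2-DMb1, the partner chain, was at 0.562, 2.26 and 2.13 CPM in sham hearts and at 10.2, 4.57, 3.77 and 3.27 CPM at 24 h. Here too the groups did not overlap, and the log2 difference was 1.25 ± 0.33 (limma adjusted p = 0.0064), with replicate C far above the rest. H2-DMb1 has a near-identical neighbour, H2-DMb2, so how the counting split reads between the pair is uncertain and was not tested. Their sum was 2.26 ± 0.853 CPM in sham (SD, n = 3) and 6.72 ± 2.92 CPM at 24 h (n = 4).

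Ciita was at 1.01, 1.49 and 1.04 CPM in sham hearts, at 0.865, 0.574 and 1.05 CPM at 4 h and at 3.16, 1.38, 1.89 and 2.17 CPM at 24 h. The 24 h hearts overlapped sham but not the 4 h hearts, with log2 differences of 0.51 ± 0.19 (limma adjusted p = 0.0342) and 0.76 ± 0.19 (limma adjusted p = 0.00434). The call against sham was lost without 24 h replicate C (limma adjusted p = 0.0845), 24 h replicate H (0.0676), sham replicate D (0.101) or sham replicate I (0.0987). In all, 3 of the 7 members rose against sham at 24 h and none fell, in a comparison in which 35.6% of all genes tested rose.

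Of the chains, H2-Aa was called once in the same hearts, and H2-Ab1 and H2-Eb1 passed in none of the 3 comparisons. H2-Aa was at 26.6, 40.3 and 26.5 CPM in sham, at 46.9, 65.7 and 56.7 CPM at 4 h and at 49.1, 33.9, 30.7 and 21.5 CPM at 24 h. The 4 h hearts lay above sham, with a log2 difference of 0.85 ± 0.26 that did not pass (limma adjusted p = 0.134), and H2-Ab1 and Cd74 also lay above sham at 4 h without overlap. Of the 7 members, 0 were called at 4 h against sham, where 2.37% of all genes were (296 of 12487, and 2058 at an unadjusted p under 0.05). From 4 h to 24 h H2-Aa fell by 0.77 on the log2 scale (SE 0.24, limma adjusted p = 0.0157), while H2-DMa, H2-DMb1 and Ciita rose. This gives 3 members higher and 1 lower, beside 37.2% of all genes higher and 26.7% lower. In the same comparison 4 of 5 red cell and atrial genes, 5 of 8 cardiomyocyte markers and 4 of 6 fibroblast markers were lower, and 4 of 5 red cell and atrial genes had been higher at 4 h than in sham. The red cell and atrial sum was 158.5 to 242.7 CPM in sham, 429.9 to 737.3 CPM at 4 h and 194.9 to 393.3 CPM at 24 h, and its part in the values was not tested. Without 4 h replicate D the H2-Aa call was lost (log2 difference -0.65, limma adjusted p = 0.0646), and the H2-DMb1 call of 0.86 was lost without any one of 5 libraries, at limma adjusted p up to 0.126 (24 h replicates C and D, 4 h replicates C, D and E). Without 24 h replicate C, H2-Ab1 and Cd74 passed as lower at 24 h than at 4 h (log2 differences -0.67 and -0.49).

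**Figure D1:**
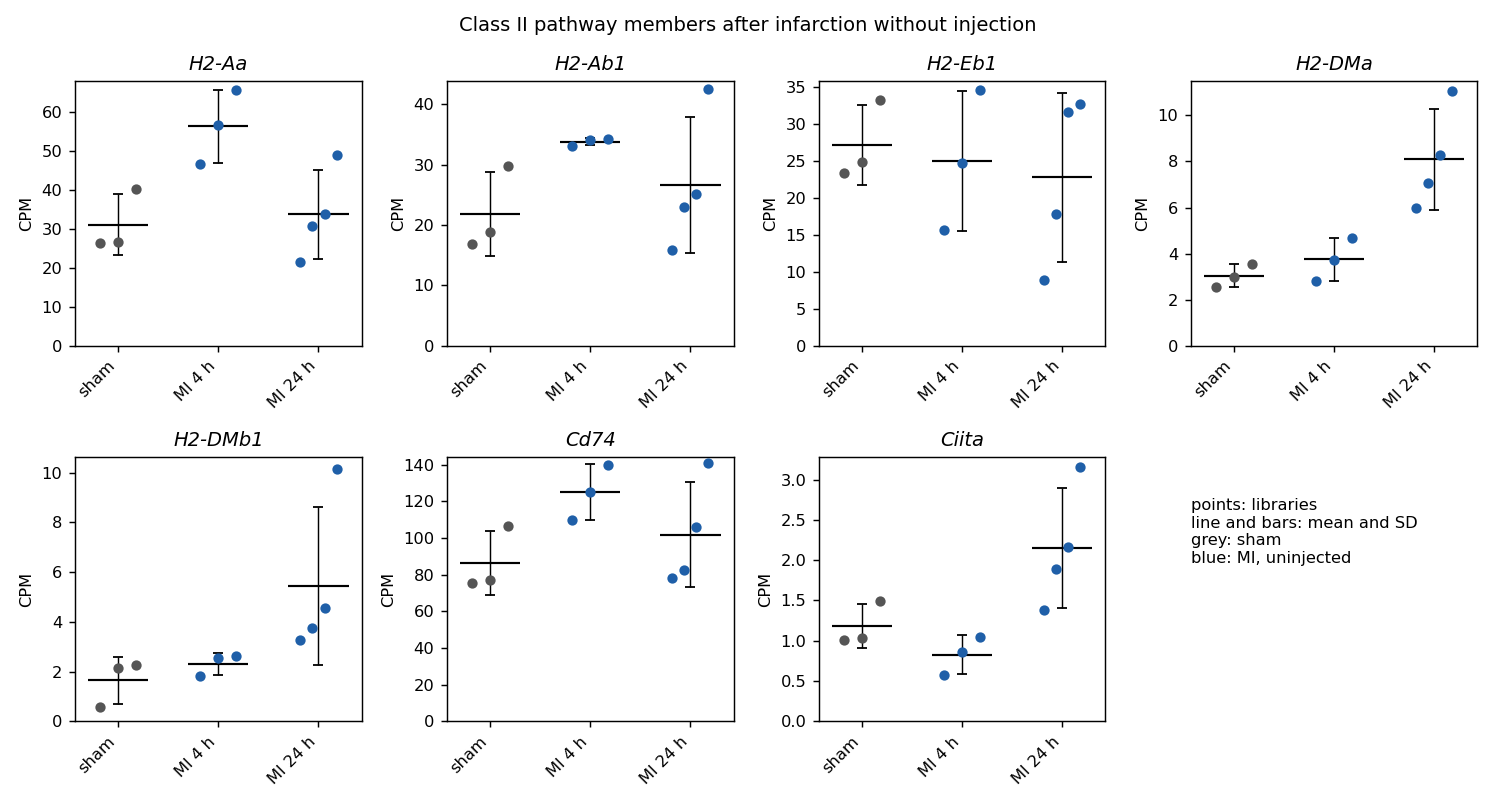
CPM of the 7 members in each library of the uninjected series (y axes, one panel per gene) in sham hearts and at 4 h and 24 h post-MI (x axes), with the mean and SD. H2-DMa at 24 h post-MI, from 5.96 to 11.1 CPM, sits above all earlier hearts, while H2-Aa at 24 h, from 21.5 to 49.1 CPM, overlaps sham.

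In Luc-injected hearts at 48 h post-MI the chains and Cd74 were below sham and the H2-DM genes did not pass the test. The sham libraries are numbered with the 4 h set, so this difference cannot be told apart from one between library sets. H2-Aa was at 58.3 and 50.8 CPM in sham hearts, at 93.0, 80.9, 74.3 and 81.3 CPM in Luc hearts at 4 h, at 34.6, 38.9 and 50.6 CPM at 24 h, and at 19.9, 16.4, 13.7 and 20.1 CPM at 48 h. No 2 of these 4 groups overlapped. Mean H2-Aa at 48 h was 0.322 of sham, a log2 difference of -1.60 ± 0.26 (SE; limma adjusted p = 0.000113). H2-Ab1 at 48 h (9.26 to 13.9 CPM) lay below sham (24.5 and 32.0 CPM), with a log2 difference of -1.18 ± 0.28. H2-Eb1 was at 41.3 and 49.2 CPM in sham and at 16.8, 17.4, 12.2 and 6.01 CPM at 48 h, a difference of -1.80 ± 0.57. Cd74 was at 111.0 and 133.2 CPM in sham and at 65.3, 55.7, 45.4 and 45.9 CPM at 48 h, a difference of -1.20 ± 0.32.

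H2-DMa in contrast was at 2.28 and 2.44 CPM in sham and at 3.03, 2.72, 2.88 and 2.39 CPM in Luc hearts at 48 h, a log2 difference of 0.16 ± 0.25 (limma adjusted p = 0.685). H2-DMb1 differed by -0.17 ± 0.34 (limma adjusted p = 0.752), which does not show that it was equal. Against sham, 4 of the 6 members tested were lower at 48 h, where 16.4% of all genes were, 0 members were called at 24 h, where 34.1% of all genes were called in either direction (4275, or 5575 at an unadjusted p under 0.05), and 0 at 4 h, where 1.55% were (194, or 1710 at an unadjusted p under 0.05). Ciita had a mean under 1 CPM over the series and was not in the fit. With 2 sham libraries the 48 h calls leaned on each of them. H2-Eb1 was lost without sham replicate 1 (limma adjusted p = 0.0859), sham replicate 2 (0.111) or Luc 48 h replicate 3 (0.0642), H2-Ab1 without sham replicate 1 (0.0613) and Cd74 without sham replicate 2 (0.066).

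Between 24 h and 48 h in Luc hearts, H2-Aa fell by 1.19, H2-Ab1 by 1.18 and Cd74 by 1.27 on the log2 scale (limma adjusted p = 0.000423, 0.000781 and 0.00124), 3 of the 6 members tested beside 32.6% of all genes lower. The median of all genes fell by 0.247 in that comparison, so relative to it H2-Aa fell by 0.94, H2-Ab1 by 0.93 and Cd74 by 1.02. These 3 calls were kept in all 34 alternatives. In the same comparison 7 of 7 red cell and atrial genes (median log2 difference -1.85), 7 of 8 cardiomyocyte markers and 2 of 6 endothelial markers were lower. Of 5 dendritic cell markers 3 were lower and 1 higher, while 3 of 6 monocyte markers were higher and 0 lower. The red cell and atrial sum was 582.8 to 1069 CPM at 24 h and 148.5 to 342.9 CPM at 48 h, and the part of these genes in the fall was not tested. Between 4 h and 24 h, H2-Aa fell by 0.99, H2-DMa by 0.64 and H2-DMb1 by 0.89, 3 members beside 7.8% of all genes lower, while the median of all genes was 0.14 higher. The H2-DMa and H2-DMb1 calls were both lost without Luc 4 h replicate 2 or 4 or Luc 24 h replicate A or C (limma adjusted p = 0.0627 to 0.0996), and the H2-DMa call also without Luc 24 h replicate D (0.0538). H2-Ab1 passed as lower without AC 4 h replicate 2 or 4, Luc 4 h replicate 3 or Luc 24 h replicate D (limma adjusted p = 0.0141 to 0.0462), and Cd74 without AC 4 h replicate 4 (0.0354), the AC libraries acting through the shared spread.

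**Figure D2:**
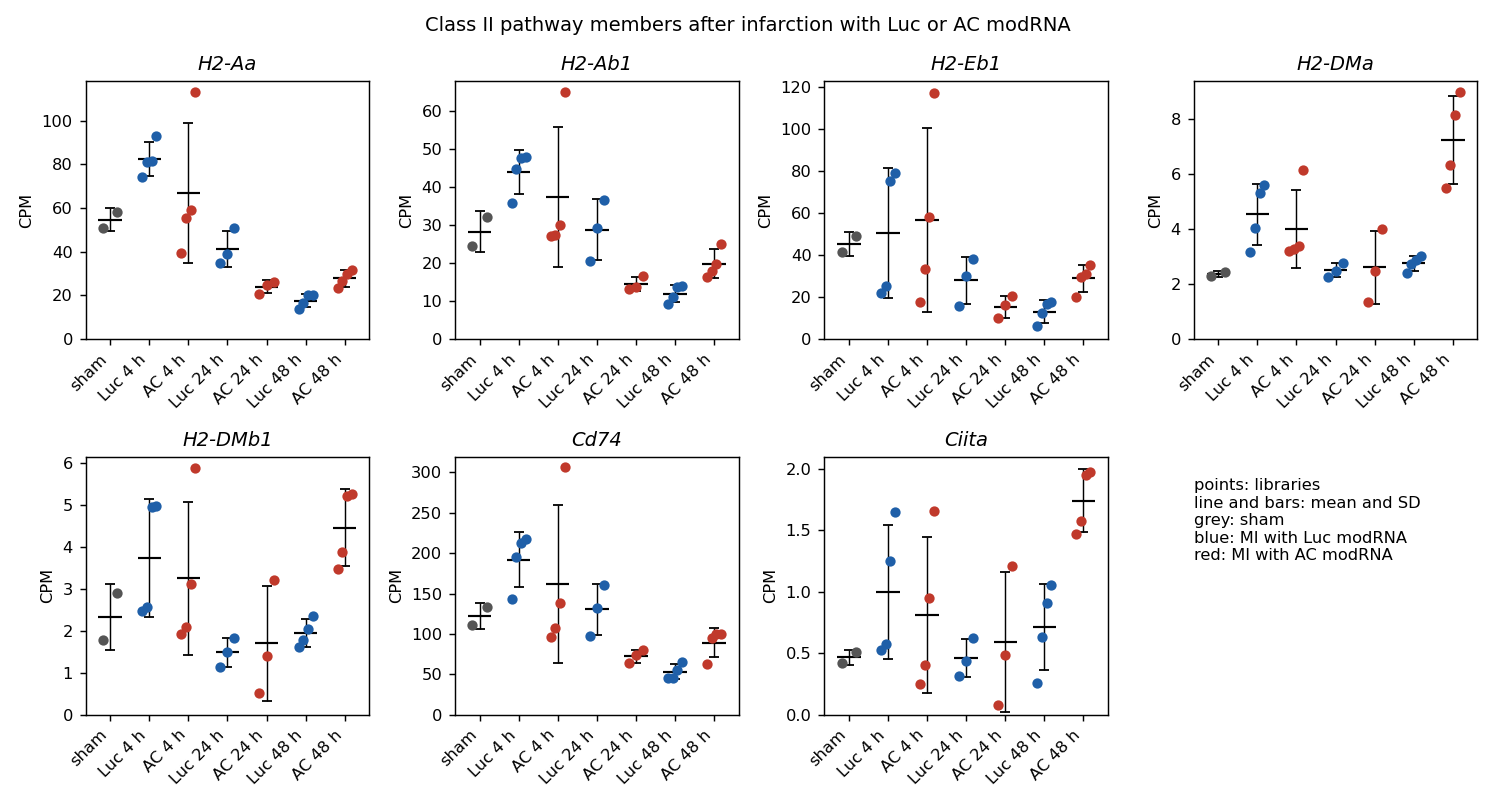
CPM of the 7 members in each library of the modRNA series (y axes, one panel per gene) by group (x axes), with the mean and SD. H2-Aa is lower in Luc hearts at each later time. At 48 h H2-DMa is at 5.51 to 9.001 CPM in AC hearts and at 2.39 to 3.03 CPM in Luc hearts, while Cd74 overlaps.

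The injected groups compare the infarcted heart given AC modRNA with the infarcted heart given the control modRNA. At 48 h H2-Aa, H2-Ab1, H2-DMa and H2-DMb1 were higher in AC hearts, while H2-Eb1 and Cd74 did not pass the test. H2-DMa was at 9.001, 8.14, 5.51 and 6.33 CPM in AC hearts and at 3.03, 2.72, 2.88 and 2.39 CPM in Luc hearts. Every AC heart lay above every Luc heart, and the mean was 2.63-fold higher, a log2 difference of 1.12 ± 0.21 (SE; limma adjusted p = 0.0011). H2-DMb1 was at 5.21, 5.24, 3.47 and 3.87 CPM in AC and at 2.35, 1.77, 2.04 and 1.60 CPM in Luc hearts, a difference of 0.88 ± 0.28 (limma adjusted p = 0.0349). Its sum with H2-DMb2 was 6.51 ± 1.57 CPM in AC and 2.67 ± 0.487 CPM in Luc hearts (SD, n = 4 each).

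H2-Aa was at 31.8, 29.99, 23.1 and 26.5 CPM in AC hearts and at 19.9, 16.4, 13.7 and 20.1 CPM in Luc hearts. The groups did not overlap, and the log2 difference was 0.64 ± 0.21 (limma adjusted p = 0.0427). H2-Ab1, at 25.1, 19.8, 16.3 and 18.0 CPM in AC hearts and 9.26 to 13.9 CPM in Luc hearts, differed by 0.68 ± 0.23 (limma adjusted p = 0.0438). H2-Eb1, at 35.3, 31.1, 19.95 and 29.7 CPM in AC hearts, was 2.21-fold the Luc mean without overlap but did not pass (limma adjusted p = 0.0965). Cd74 was at 99.9, 100.1, 62.7 and 94.4 CPM in AC hearts, and replicate 4 lay below the highest Luc heart (limma adjusted p = 0.0578). Ciita was at 1.95, 1.98, 1.57 and 1.47 CPM in AC hearts and at 0.255, 0.906, 1.05 and 0.63 CPM in Luc hearts. The difference in Ciita had an exact two-sided permutation p of 0.0286, the smallest that 4 against 4 can give, and 0.229 after Benjamini-Hochberg adjustment over 8 comparisons.

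In all, 4 of the 6 members tested were higher in AC hearts at 48 h, where 12.1% of all genes were. The median of all genes was 0.135 higher, and relative to it H2-DMa differed by 0.98, H2-DMb1 by 0.75, H2-Ab1 by 0.55 and H2-Aa by 0.51. After rescaling that removes this median shift, only H2-DMa passed among the members, and the split of all genes moved from 1516 higher and 410 lower to 823 and 802. The H2-DMa call was kept in all 33 alternatives (limma adjusted p at most 0.00856). The calls of H2-Aa and H2-Ab1 were lost without any one of the 8 hearts of 48 h, with differences between 0.54 and 0.73 for H2-Aa and between 0.57 and 0.77 for H2-Ab1 and limma adjusted p up to 0.107 and 0.117. The H2-DMb1 call was lost without AC replicate 1, 2 or 5 or Luc replicate 1, 2 or 3 (limma adjusted p up to 0.107). Some hearts of other times, which enter through the shared spread, also ended a call, with limma adjusted p between 0.0504 and 0.0525. These were Luc 4 h replicates 2, 3 and 4 for H2-Aa and Luc 4 h replicates 1, 2 and 4 and Luc 24 h replicate C (0.0507) for H2-Ab1. Cd74 passed without AC 48 h replicate 4 (log2 difference 0.89, limma adjusted p = 0.044) and without AC 4 h replicate 1 (0.0428) or 4 (0.0124).

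At 24 h the chains pointed the other way without passing the test. H2-Aa was at 26.2, 20.5 and 24.8 CPM in AC hearts and at 34.6, 38.9 and 50.6 CPM in Luc hearts, a log2 difference of -0.76 ± 0.24 (limma adjusted p = 0.83). H2-Ab1 differed by -0.91 ± 0.26 and Cd74 by -0.81 ± 0.30 (limma adjusted p = 0.824 and 0.969). H2-DMa, at 1.35, 4.00 and 2.48 CPM in AC hearts, overlapped Luc hearts. None of the 6 members tested was called at 24 h, where 0.00796% of all genes were (1 gene of 12555, and 599 at an unadjusted p under 0.05), and none at 4 h, where again 0.00796% were (1 gene, and 131 at an unadjusted p under 0.05).

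The change of the AC-to-Luc difference with time was tested directly. Between 24 h and 48 h it rose by 1.40 ± 0.32 for H2-Aa, 1.60 ± 0.35 for H2-Ab1 and 1.54 ± 0.39 for Cd74 (log2 and SE; limma adjusted p = 0.0212, 0.0153 and 0.035), 3 of 6 members beside 2.23% of all genes, whose median rose by 0.173. H2-DMa rose by 1.14 ± 0.32 and did not pass (limma adjusted p = 0.0562). Between 4 h and 48 h only H2-DMa of the 6 members passed, at 1.28 ± 0.29 (limma adjusted p = 0.0171), beside 2.88% of all genes, whose median rose by 0.117. Between 4 h and 24 h no member passed, beside 0.00796% of all genes (1 gene lower, and 379 at an unadjusted p under 0.05). AC 4 h replicate 4 was highest of its group for all 7 members, and without it H2-Aa, H2-Ab1, H2-DMb1 and Cd74 passed too between 4 h and 48 h. Without Luc 24 h replicate D none of the members passed between 24 h and 48 h, and without AC 48 h replicate 2 only H2-Ab1 did. The Cd74 call between 24 h and 48 h was also lost without AC 24 h replicate A or D, Luc 24 h replicate C, AC 48 h replicate 1 or 5 or Luc 48 h replicate 3 (limma adjusted p = 0.0615 to 0.087), and H2-DMa passed without AC 4 h replicate 4, AC 24 h replicate C or Luc 48 h replicate 4 (0.0169 to 0.0433).

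**Figure D3:**
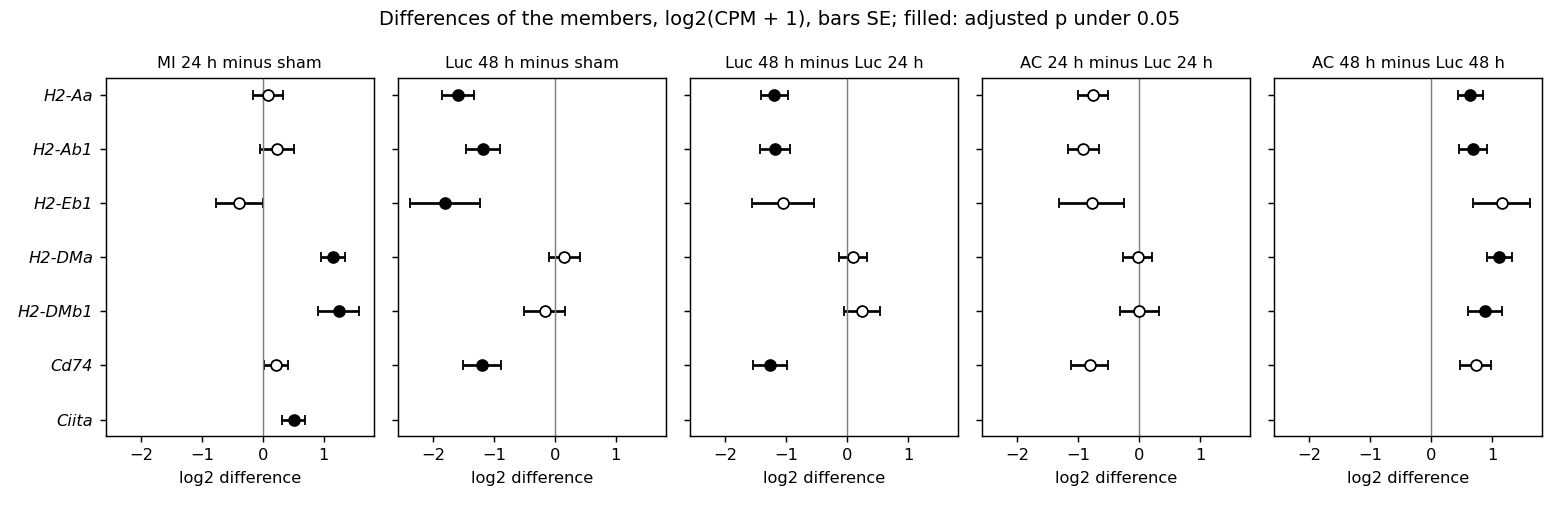
Log2 differences of the members with their SE (x axes, on log2(CPM + 1)) for 5 comparisons, with filled points for a limma adjusted p under 0.05. Ciita is drawn only for the uninjected series. At 24 h post-MI H2-DMa (1.15) and H2-DMb1 (1.25) are filled on the right, and at 48 h in Luc hearts the chains and Cd74 (-1.18 to -1.80 against sham) are filled on the left.

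The ratio of 2 genes within a library does not depend on how the library was scaled, and was added after the members' values were known. H2-DMa was 0.0965, 0.0882 and 0.113 of H2-Aa in the sham hearts of the uninjected series, 0.0795, 0.043 and 0.0825 at 4 h and 0.225, 0.244, 0.194 and 0.329 at 24 h post-MI. The 24 h hearts lay above all others of that series. In the modRNA series the ratio was 0.0391 and 0.0481 in sham, 0.119 to 0.209 in Luc hearts at 48 h and 0.238 to 0.283 in AC hearts at 48 h. AC and Luc hearts at 48 h did not overlap, and the exact two-sided permutation p of 0.0286, the smallest that 4 against 4 can give, was 0.157 after adjustment over 11 comparisons. With 4 against 3 hearts, as at 24 h post-MI against sham, no p under 0.0571 can be had, and with 4 against 2, as for Luc 48 h against sham, none under 0.133.

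**Figure D4:**
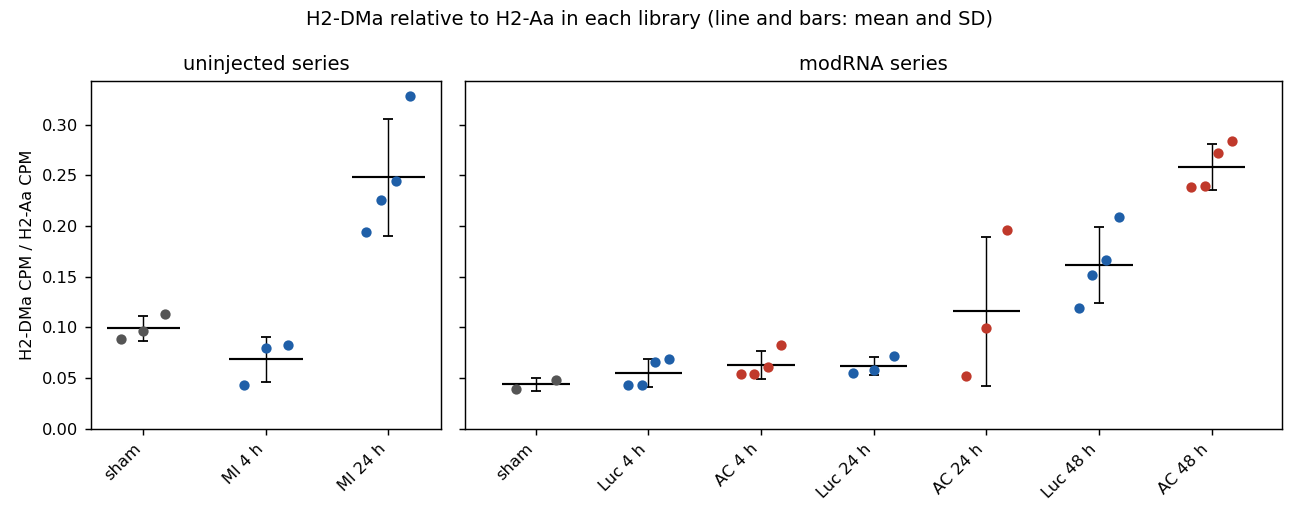
H2-DMa CPM divided by H2-Aa CPM in each library (y axis) by group (x axes), with the mean and SD. The ratio is highest at 24 h post-MI in the uninjected series (0.194 to 0.329) and at 48 h in AC hearts of the modRNA series (0.238 to 0.283).

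H2-Eb1 varied between libraries in a way that the groups do not describe. Its ratio to H2-Aa lay between 0.237 and 0.453 in 9 libraries and between 0.667 and 1.12 in the other 25 of the 34, with none in between. Libraries of the lower range were found in the 4 h and 24 h groups of the uninjected series and in the Luc groups of all 3 times and the AC groups of 4 h and 24 h, but in neither sham group nor among AC hearts at 48 h. In Luc hearts at 48 h the ratio was 0.841, 1.06, 0.891 and 0.298. Without the last of these, replicate 3, the AC-to-Luc difference of H2-Eb1 at 48 h was 0.85 instead of 1.16 (limma adjusted p = 0.323). H2-Ea-ps, the gene of the E molecule's alpha chain as named for the reference strain, was under 1 CPM in 13 libraries (0 to 0.67 CPM) and between 2.72 and 28.1 CPM in the other 21. At 48 h it was at 0, 0.0482, 6.16 and 0 CPM in AC hearts and at 5.22, 0.0584, 3.93 and 2.72 CPM in Luc hearts. The MHC is highly polymorphic between mice and the reads were aligned to the sequence of 1 inbred strain. Whether the alleles of these outbred mice moved the values was not tested.

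**Figure D5:**
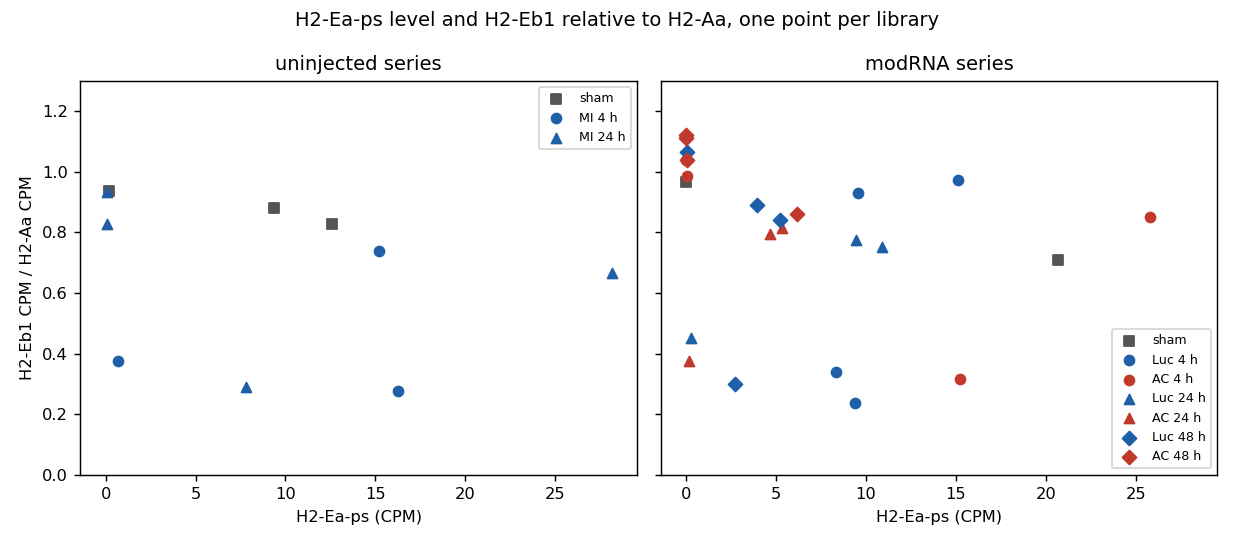
H2-Eb1 CPM divided by H2-Aa CPM (y axis) against H2-Ea-ps CPM (x axis), 1 point per library, coloured and shaped by group. The ratio falls into a lower range (up to 0.453) and an upper range (from 0.667), and both ranges hold libraries with H2-Ea-ps near 0 and libraries with H2-Ea-ps above 2.72 CPM.

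The rest of the pathway was followed by lists. Of 8 genes of antigen processing and class II turnover, 5 rose and 1 fell at 24 h post-MI without injection, and 5 rose and 0 fell in AC against Luc hearts at 48 h. Of all genes tested, 35.6% rose in the former comparison and 12.1% in the latter. The median of this list at 24 h post-MI was 0.495, beside 0.035 for all genes. Ctss, the protease that trims the invariant chain, was 5.82-fold sham at 24 h post-MI (75.1 ± 28.5 against 12.9 ± 2.50 CPM; log2 difference 2.40 ± 0.23) and 2.02-fold Luc in AC hearts at 48 h (120.0 ± 20.2 against 59.4 ± 17.0 CPM; 1.03 ± 0.16). March8, a ubiquitin ligase that targets surface proteins, fell by 0.53 at 24 h post-MI. The median of this list in AC against Luc hearts at 48 h was 0.402, beside 0.135 for all genes. Of 7 factors that bind class II promoters, Rfxank rose by 0.73 and Nfyc fell by 0.25 at 24 h post-MI, and 0 passed in AC against Luc hearts at 48 h, where Rfx5 was at 4.62 and 4.56 CPM. Of the other class II genes, H2-DMb2 was higher in AC hearts at 48 h (2.06 ± 0.69 against 0.727 ± 0.28 CPM; limma adjusted p = 0.0437), and H2-Oa, part of the inhibitor of H2-DM, stayed under 1 CPM on average and was not tested. H2-Ea was not among the genes of either series.

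Class I molecules present peptides from the cytosol. In Luc hearts at 24 h, 9 of 14 class I genes were higher than in sham and 0 lower, with a median log2 difference of 1.99 beside 0.158 for all genes, while 0 of the class II members was called. Of all 12555 genes tested, 3172 were higher and 1103 lower in that comparison, which cannot be told apart from a difference between library sets. H2-K1, a classical class I heavy chain, was at 463.9 ± 23.0 CPM (SD, n = 3) against 106.7 ± 4.73 CPM (n = 2), and Tap1, which carries peptides into the endoplasmic reticulum, was 17.8-fold sham. By 48 h 12 of the 14 had fallen again and 0 had risen, beside 32.6% of all genes lower than at 24 h. The median log2 difference of all genes from 24 h to 48 h was -0.247. Of 8 tested genes of interferon-gamma input, 5 rose and 1 fell at 24 h, and 7 fell from 24 h to 48 h. Irf1, an interferon-induced transcription factor, rose most at 24 h (158.5 ± 117.1 against 18.2 ± 5.25 CPM). Ifngr2, a chain of the interferon-gamma receptor, fell (51.5 ± 9.95 against 146.6 ± 3.52 CPM; log2 difference -1.51, limma adjusted p = 0.00089). Without injection 4 of 8 rose and 1 fell at 24 h post-MI, again Ifngr2 (-1.05), in a comparison in which 35.6% of all genes tested rose. Ifng itself was listed at 0 in both sham hearts and averaged 0.0252 CPM in Luc hearts at 24 h. At 24 h post-MI without injection 8 of the 14 class I genes rose and 1 fell, with a median log2 difference of 0.812 beside 0.035 for all genes. In AC against Luc hearts at 48 h 2 class I genes rose, the chaperones Calr (log2 difference 0.77) and Pdia3 (0.68), and 0 of 8 interferon-gamma input genes passed. Of all genes tested, 12.1% rose in that comparison. Of 3 co-stimulation genes, 3 rose at 24 h post-MI, with Cd80 at 6.92 ± 2.81 against 0.433 ± 0.0636 CPM, and 0 passed in AC against Luc hearts at 48 h.

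Markers of the cells that can use class II, and of other cells, are given beside these results, and their part in them was not tested. At 24 h post-MI against sham, 35.6% of all genes tested rose, and 8628 of 12487 had an unadjusted limma p under 0.05 in either direction. Counts of markers are to be read beside these shares. At 24 h post-MI without injection all 6 monocyte markers rose, from a sum of 32.3 to 47.8 CPM in sham to 174.0 to 318.3 CPM, with Chil3 rising most (49.5 ± 21.1 against 0.0823 ± 0.0469 CPM) and Ly6c2 at 18.6 ± 10.4 against 0.209 ± 0.0995 CPM. All 6 neutrophil markers tested rose as well, from 1.41 to 1.92 CPM to 286.9 to 1842 CPM in sum. The 12 resident macrophage markers summed to 153.8 to 212.3 CPM in sham and 153.8 to 210.1 CPM at 24 h, with 2 higher (Lyve1 and Mertk) and 3 lower (Cx3cr1, Timd4 and Folr2). Of 5 dendritic cell markers tested, 3 rose, with Itgax at 8.15 ± 2.71 against 0.399 ± 0.0642 CPM. Flt3, which defines these cells, averaged 0.735 CPM at 24 h and 0.122 CPM in sham. Cd79a, which defines B cells, was at 0.818 ± 0.219 CPM at 24 h and 0.305 ± 0.173 CPM in sham. The only T cell marker tested, Cd3e, rose, and the only B cell marker tested, Blk, did not pass. Of 8 cardiomyocyte markers 0 rose and 4 fell, Myh6 by 1.77 on the log2 scale. Of 6 endothelial markers 2 rose and 2 fell, of 6 fibroblast markers 3 fell, and of 5 red cell and atrial genes 0 passed.

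In Luc hearts at 48 h, where the chains were below sham, 5 of 6 monocyte markers, 6 of 7 neutrophil markers, 4 of 12 resident macrophage markers and 3 of 5 dendritic cell markers were above sham and 0 of these was below it. In AC against Luc hearts at 48 h, where 12.1% of all genes rose, 3 of 6 monocyte markers rose, with Ccr2 at 44.5 ± 8.90 against 9.63 ± 2.82 CPM. The monocyte sum was 151.2 to 204.0 CPM in AC and 90.5 to 179.4 CPM in Luc hearts. Of 12 resident macrophage markers, 3 rose (Adgre1, Csf1r and Cx3cr1, the last from 2.24 ± 1.54 to 10.8 ± 2.56 CPM) and 2 fell (Lyve1 and Cd163), and the sums overlapped, at 279.9 to 312.5 CPM in AC and 230.6 to 325.4 CPM in Luc hearts. Of the dendritic cell markers, Itgax rose (7.78 ± 2.28 against 2.39 ± 0.606 CPM), the sum was 31.5 to 41.4 CPM against 22.8 to 30.6 CPM, and Flt3 averaged 0.601 against 0.137 CPM. Of the B cell markers, Blk was higher in AC hearts (3.07 ± 0.626 against 1.54 ± 0.854 CPM), and Cd79a, too low to be tested, was at 0.731 ± 0.233 CPM against 0.235 ± 0.0912 CPM without overlap. Ms4a1, also untested, was at 0.28 ± 0.0902 CPM against 0.0588 ± 0.0455 CPM, again without overlap. The T cell marker tested, Cd3e, did not pass, nor did any of 6 endothelial or 7 red cell and atrial genes. Retnlg of the neutrophil list fell (1.98 ± 0.455 against 21.5 ± 20.1 CPM), while S100a8 did not pass (limma adjusted p = 0.257). The neutrophil sums overlapped, at 103.7 to 143.3 CPM in AC and 113.4 to 426.9 CPM in Luc hearts. Myh6 fell (6799 against 11405 CPM), and the cardiomyocyte sum was 25970 to 32970 CPM in AC and 35120 to 48220 CPM in Luc hearts. Of 6 fibroblast markers 4 rose, led by Col3a1 (1037 against 296.3 CPM).

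Across the 24 libraries of the modRNA series, the 10 genes whose levels followed the mean of H2-Aa, H2-Ab1, H2-Eb1 and Cd74 most closely were Mamdc2, Scn10a, Nsmce1, Tbc1d10c, Sun3, Lrrc55, Cd83, Ttll1, Dcaf4 and Cxx1c. Their Pearson r was between 0.806 and 0.836, and across the 10 libraries of the uninjected series the same genes had r between 0.048 and 0.447, with Cd83, a surface protein of mature dendritic cells, at the top. H2-DMb1 and H2-DMa had r of 0.49 and 0.347 in the modRNA series, at ranks 1812 and 3144 among the genes tested. The points share their groups and times, so these values describe the series only.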

How the data were processed

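RNA of the LV was sequenced in 34 libraries. Per the labels, the libraries were made with a stranded mRNA kit; per the study's methods, reads were aligned with STAR to mm10 and assigned to RefSeq genes by Partek's expectation-maximization step, and whether counting used strand is not stated. The deposited CPM values are the authors' read counts after TMM scaling of each series on its own. Their library sums are not equal, and ran from 508204 to 818456 CPM in the modRNA series. The lowest deposited value of the modRNA series is 1 in each library, so 1 was subtracted. In the uninjected series 82.1% of values under 1 CPM lay within 0.01 of a whole multiple of the lowest value, too few to recover reads for a count test.

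The 12487 and 12555 genes averaging 1 CPM or more were tested with limma 3.58.1 in R 4.3.3 on log2(CPM + 1), with all groups of a series in 1 model, a mean-variance trend, no covariates and two-sided Benjamini-Hochberg adjusted p under 0.05 over all genes tested. Differences on this scale understate changes of low genes. Folds are ratios of mean CPM. The script was tested on simulated data. Exon lengths came from GENCODE M21. Named genes are the members, and from each list its first gene and the called genes with the largest rise and fall, with a few added after their values were seen (Pdia3, Mertk, Timd4, Folr2, Csf1r, Cd163 and Ms4a1 to complete small counts). The summed level of the B cell markers is not reported here. Members and lists were chosen with earlier results of these data known. Python 3.11.15 with scipy 1.17.1 was used for the exact tests. Alternatives changed the pseudocount, filter, scaling, samples, variance model, weights, block, subtraction and each library in turn.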

Additional observations from a re-analysis of the deposited data

Results flagged for a closer look

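In 35 groups of 4 libraries checked, 1 for each member and group, a single library stood far from the others in 3, and chance gives about 1 in 20. H2-Ab1 was at 65.0 CPM and H2-DMa at 6.13 CPM in AC 4 h replicate 4, and Cd74 was at 62.7 CPM in AC 48 h replicate 4.

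The AC-to-Luc difference changed with time, by the test of the change itself, for 4 members, none of which passed in more than 1 change of time. H2-DMa rose by 1.28 on the log2 scale between 4 h and 48 h, beside 2.88% of all genes. Between 24 h and 48 h H2-Aa rose by 1.40, H2-Ab1 by 1.60 and Cd74 by 1.54, beside 2.23% of all genes. Without Luc 24 h replicate D no member passed between 24 h and 48 h. The times also differ in library set.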

How the results depend on the processing

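The number of members called moved by more than 1.5 times in these cases, for which the cause was not tested except where fewer genes were tested. With a mean of at least 5 CPM, fewer members were tested, and 1 was called at 24 h post-MI against sham, 2 against 4 h post-MI, 1 for Luc 24 h against Luc 4 h, 0 for AC against Luc at 48 h and 0 for the change of that difference from 4 h to 48 h. Median-ratio rescaling gave 5 for Luc 24 h against Luc 4 h and 1 for AC against Luc at 48 h. Equal totals gave 1 for Luc 24 h against sham, 5 for Luc 24 h against Luc 4 h and 4 for the change from 4 h to 48 h. Fitting only the groups compared gave 1 at 4 h post-MI against sham, 1 for Luc 4 h against sham and 5 for Luc 24 h against Luc 4 h. Array weights gave 2 for Luc 48 h against sham and 5 for the change from 4 h to 48 h.

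Correlations of same-numbered libraries ran from -0.206 to 0.433. Differently numbered libraries were not compared, so whether replicate numbers pair the samples stays undecided. With the replicate block, 2 members were called for the change of the AC-to-Luc difference from 4 h to 48 h, and in no other comparison did the count move by over 1.5 times.

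Leaving out each library in turn gave 2 to 3 members called at 24 h post-MI against sham, 2 to 5 against 4 h post-MI, 2 to 4 for Luc 48 h against sham, 1 to 5 for Luc 24 h against Luc 4 h, 1 to 5 for AC against Luc at 48 h, 1 to 5 for its change from 4 h to 48 h and 0 to 4 for its change from 24 h to 48 h.

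Differences that changed sign were all uncalled. Under median-ratio rescaling H2-DMa and Cd74 differed by -0.0796 and -0.125 in Luc 24 h against sham, and under equal totals by -0.16 and -0.24, while H2-DMa in AC against Luc at 24 h was 0.0038 and 0.0505. With a pseudocount of 0.1, H2-DMb1 in AC against Luc at 24 h was -0.11. With array weights, H2-Aa and H2-Ab1 at 24 h post-MI against sham were -0.16 and -0.062, H2-Eb1 in Luc 4 h against sham 0.34, H2-Ab1 in Luc 24 h against sham 0.0443, H2-Eb1 in AC against Luc at 4 h -0.38, H2-DMb1 in AC against Luc at 24 h -0.16, and H2-DMa in the change from 4 h to 24 h -4e-04.

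Without 1 library at a time, differences changed sign for H2-Aa (-0.11 to 0.28) and H2-Ab1 (-0.0141 to 0.47) at 24 h post-MI against sham, H2-Eb1 at 4 h post-MI against sham (-0.43 to 0.12), at 24 h against 4 h post-MI (-0.51 to 0.15), in Luc 4 h against sham (-0.36 to 0.24) and in AC against Luc at 4 h (-0.38 to 0.51), H2-Ab1 (-0.19 to 0.21) and Cd74 (-0.10 to 0.26) in Luc 24 h against sham, H2-DMb1 in Luc 48 h against sham (-0.41 to 0.0786), H2-DMa (-0.29 to 0.25) and H2-DMb1 (-0.37 to 0.36) in AC against Luc at 24 h, and H2-DMa (-0.13 to 0.42) and H2-DMb1 (-0.18 to 0.55) in the change from 4 h to 24 h.

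All-gene splits moved with scaling. Median-ratio rescaling turned 3172 higher and 1103 lower into 2294 and 2047 for Luc 24 h against sham, 3079 and 979 into 1969 and 1789 for Luc 24 h against Luc 4 h, and 1170 and 4088 into 2003 and 2085 for Luc 48 h against Luc 24 h. Equal totals gave 1836 and 2483, 1708 and 1839, and 3255 and 945 in these, 2502 and 1286 in place of 1714 and 2060 for Luc 48 h against sham, and 2104 and 421 for AC against Luc at 48 h.

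Of the other values of single members, 2436 kept their direction and side of the threshold, 79 lost and 43 gained a call. Precision is limited by 2 to 4 libraries in a group and by the low levels of the H2-DM genes and Ciita.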
